A study of Ursus arctos with 12 samples.

Results

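Myoglobin and the genes that bring iron into a muscle cell, store it, release it, sense it and build it into iron-sulfur clusters were followed between seasons in the skeletal muscle of brown bears (Ursus arctos). The set holds 9 genes, namely MB, TFRC, FTH1, FTL, SLC40A1, SLC11A2, IREB2, ACO1 and ISCU, taken by symbol from a table of 30249 genes. All 9 were among the 17290 genes tested. Biopsies of the vastus lateralis, a thigh muscle, came from free-ranging bears aged 2 to 3 years, and each of the 6 animals, numbered 1305, 1316, 1317, 1509, 1511 and 1512, gave 1 library in February during hibernation (winter) and 1 in June of the active period (summer). Season was the only factor, with no genotype or drug named, and feeding and physical activity went with it and cannot be told apart. Depth was 16742406 to 32140160 gene reads per library. Levels are given in CPM, gene reads per 1000000 after TMM scaling of each library, which says nothing on its own about one gene against another because gene length was not taken into account.

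Myoglobin is the heme protein that holds oxygen inside muscle fibres and gives red muscle its colour, and it is one of the large iron pools of the body. Iron reaches most cells bound to transferrin, which is taken up through the transferrin receptor, passes out of the endosome through a divalent metal transporter and is then used in mitochondria for heme and iron-sulfur clusters, stored in ferritin, or exported through ferroportin. The iron regulatory proteins sense the remainder: when iron is scarce they bind hairpins in messenger RNAs, protecting the transferrin receptor message from decay and holding back translation of the ferritin messages, so that for ferritin a transcript level need not follow the protein.

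In winter 4 of the 9 genes were lower and none was higher. Myoglobin (MB) fell to 49.8% of its summer level, the transferrin receptor (TFRC) to 23.6%, the cytosolic aconitase and iron regulatory protein ACO1 to 65.3% and the divalent metal transporter SLC11A2 to 70.9%. The 2 ferritin genes, ferroportin (SLC40A1), the second iron regulatory protein IREB2 and the cluster scaffold ISCU did not pass the test. These calls are those of the edgeR quasi-likelihood fit at a p below 0.05 after adjustment over all genes by Benjamini and Hochberg, a test that called 19.9% of all genes lower and 19.6% higher in winter. With an unadjusted p below 0.05 the count of higher genes in the set was also 0, and it was 0 with DESeq2 and with limma voom. The median log2 fold change of the 9 genes was -0.31, beside -0.00 over all genes tested, and within single bears the median of the set ran from -0.74 to -0.04. Fitted with bear as a block, the test called the same number lower, 4, where it called 21.2% of all genes lower.

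**Figure D1:**
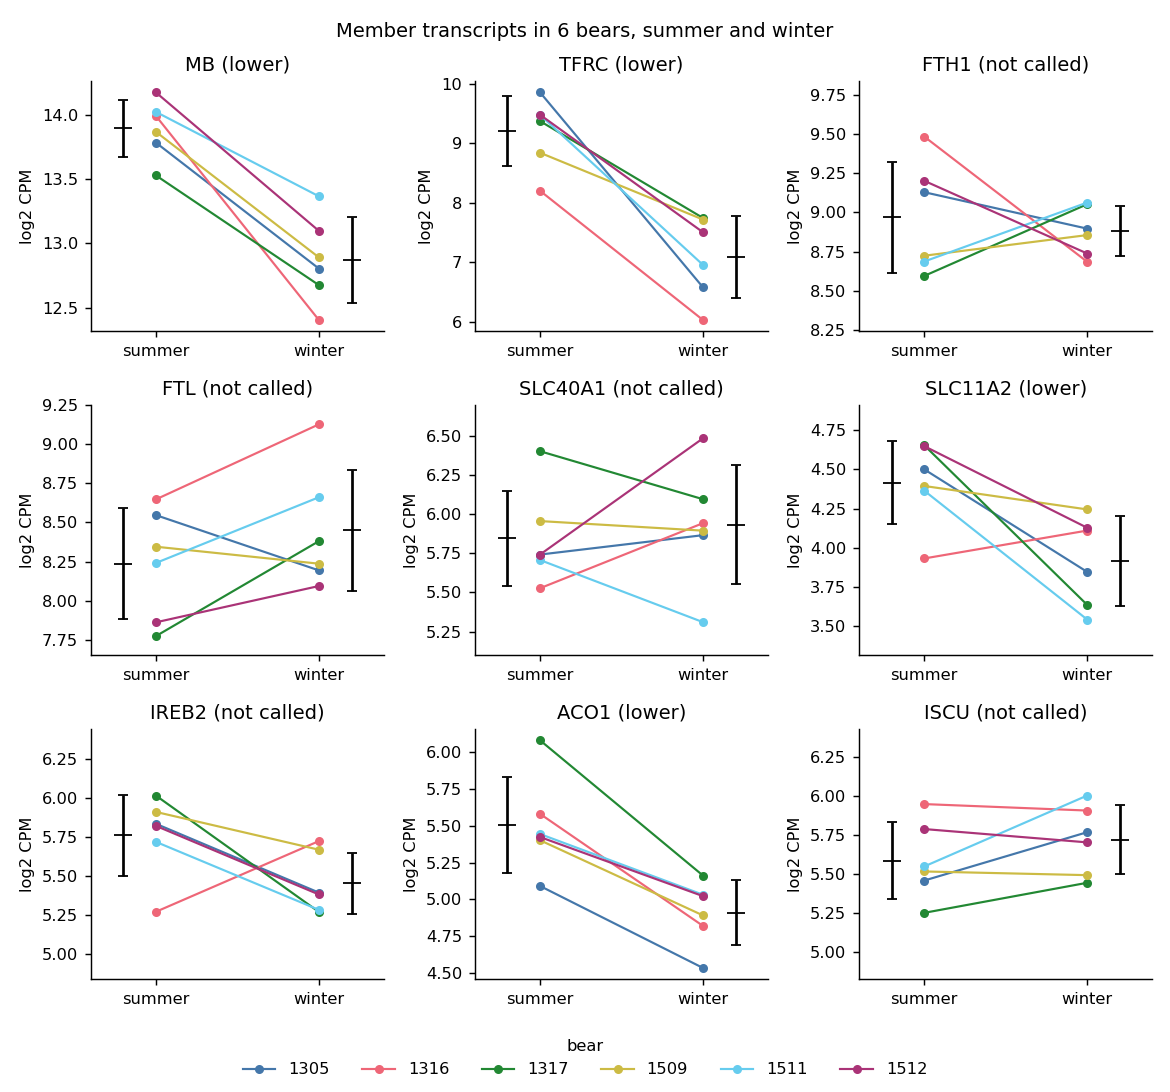
Log2 CPM of each of the 9 genes in summer and winter, with 1 line per bear (6 bears) joining its summer and winter library and a black bar for the mean with its SD (n = 6) in each season. The lines of MB and TFRC drop in all 6 bears with no overlap between seasons, those of ACO1 drop in all 6 bears with some overlap, and those of the ferritin genes FTH1 and FTL cross.

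A stricter reading gave a shorter list. MB, TFRC and ACO1, 3 of the 9, had an adjusted p below 0.01 together with a fold change below 0.77, where 12.01% of all genes met both limits in the lower direction. MB, TFRC and ACO1 were also lower in 6 of 6 bears, as were 18.96% of all genes tested. For MB and TFRC every winter library lay below every summer library, which held for 8.21% of all genes.

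The defining markers of the labelled tissue were abundant, with a summed level of 83770 to 146777 CPM in summer and 92375 to 133242 CPM in winter over 9 skeletal muscle genes. Of these 9, 2 were called higher, 1 lower and 6 were not called, and with bear as a block 3 were called higher. Markers of endothelial cells, macrophages, fibroblasts and adipocytes had lower sums in winter. The counts called in this paragraph stand beside 19.9% of all genes called lower and 19.6% higher. Over 7 tested endothelial markers the sum was 627 to 961 CPM in summer and 412 to 482 CPM in winter, and 6 of them were called lower. Over 12 macrophage markers, of which 11 were tested, it was 110 to 164 CPM in summer and 46.6 to 88.1 CPM in winter, with 7 called lower. Fibroblast markers went from 4197 to 11311 CPM down to 275 to 1668 CPM, with 4 of 7 called lower. Adipocyte markers went from 627 to 1990 CPM down to 301 to 577 CPM. Of these 6, LPL and FABP4 were called lower, 1 was called higher and 3 were not called, with bear medians of -3.92 to 1.28 on the log2 scale. With bear as a block, which called 21.2% of all genes lower, 6 of the fibroblast markers were called lower. The adipocyte call higher, that of LEP with at most 19 reads in a library, was lost with the block (block adjusted p = 0.0629, beside 0.0366 without the block and 0.0211 to 0.146 across alternatives). In a bulk biopsy fewer cells of a type and less RNA per cell cannot be told apart. The part of these cell types in the results on iron genes was not tested.

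Myoglobin RNA was lower in winter in each of the 6 bears. Its summer level was 11828 CPM at the lowest, 15639 at the median and 18518 at the highest, and its winter level was 5416, 7374 and 10565 CPM. The highest winter library, from bear 1511, thus stayed under the lowest summer library, from bear 1317. Mean log2 CPM was 13.90 ± 0.22 for the summer libraries and 12.87 ± 0.33 for those of winter (SD, n = 6), and the fitted log2 fold change was -1.01 (SE 0.18, 95% interval -1.38 to -0.63, adjusted p = 0.000639 by edgeR). By bear the difference ran from -1.59 in bear 1316 to -0.66 in bear 1511. Each library held 116168 to 473360 MB reads, so counting error was small beside the spread between bears. MB alone took 1.35 to 1.87% of all gene reads in summer, with a median of 1.55%, and 0.507 to 1.02% in winter, with a median of 0.762%.

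Myoglobin is richest in slow, oxidative fibres, so fibre-type transcripts are given beside it. The summed slow-fibre markers were 11752 to 24201 CPM in summer and 13603 to 20942 CPM in winter, ranges of which the winter one lay within the summer one. Of 7 slow-fibre markers with a row, 1 was called lower, the calcium pump gene ATP2A2, and 0 higher by edgeR, by DESeq2, by limma voom or at an unadjusted p below 0.05, and their median log2 fold change was 0.08. With bear as a block 1 was called higher, MYOZ2, a protein of the sarcomere's Z-disc (block log2 fold change 0.60, adjusted p = 0.0270, beside 0.54 and 0.229 without the block and 0.00377 to 0.363 across alternatives). The summed fast-fibre markers were 35760 to 72292 CPM in summer and 40479 to 49949 CPM in winter, with 3 of 7 called lower (ATP2A1, ACTN3 and MYBPC2) and a median of -0.45. Of all genes, 19.9% were called lower and 19.6% higher. The slow-fibre markers had no shared direction, and the part of fibre type in the MB level was not tested. MYH7 and MYH2, the myosins that define slow and fast oxidative fibres, were not analysed here.

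The transferrin receptor transcript had the largest difference of the set. TFRC, which carries transferrin-bound iron into the cell, was 294 CPM at the lowest, 688 at the median and 926 at the highest in summer, and 65.2, 153 and 214 CPM in winter. No winter library reached the lowest summer library, which came from bear 1316, the bear that was also lowest in winter. The fitted log2 fold change was -2.08 (SE 0.32, 95% interval -2.76 to -1.40, adjusted p = 0.00023), from mean log2 CPM of 9.20 ± 0.59 for the summer libraries and 7.09 ± 0.69 for those of winter (SD, n = 6). Bears differed widely in the size of the fall, from -3.28 in bear 1305 to -1.12 in bear 1509 on the log2 scale, but none went the other way. Ranked by fold change, TFRC was the 380th largest fall of the 17290 genes.

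TFRC is also a classic message of maturing red cells, and capillary endothelium carries the receptor, so the markers of both are set beside it. Over the 10 erythroid markers with a row, of which 4 were tested, the summed level was 4.04 to 68.1 CPM in summer and 34.5 to 56.8 CPM in winter. EPB42, a red-cell membrane protein counted at 0 to 71 reads per library and highest in bear 1509 among the winter libraries, was called lower (log2 fold change -3.95, SE 0.88, adjusted p = 0.00308). It was the only 1 of the 4 called, where 19.9% of all genes were called lower. The hemoglobin gene HBA1 was 3.13, 25.0 and 64.4 CPM at the lowest, median and highest of the summer libraries and 32.7, 44.8 and 56.2 CPM in winter, and its log2 fold change of 0.80 (SE 0.50) did not pass (adjusted p = 0.218). Without bear 1509 HBA1 was called higher (1.39, adjusted p = 0.0323), and its adjusted p over all alternatives ran from 0.0323 to 0.443. The erythroid sum overlapped between seasons. The endothelial sum was lower in winter without overlap, and so were the macrophage, fibroblast, adipocyte and hepatocyte sums. The part of erythroid or endothelial cells in the TFRC level was not tested.

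SLC11A2, also called DMT1, moves ferrous iron out of the endosome once transferrin has released it. It was counted at 192 to 639 reads per library and measured 15.2, 21.7 and 25.1 CPM at the lowest, median and highest of the summer libraries and 11.6, 15.7 and 18.9 CPM in winter. The seasons overlapped, and 5 of 6 bears were lower in winter, with bear 1316 the exception at 0.18 and bear 1317 the extreme at -1.02 on the log2 scale. The fitted log2 fold change was -0.50 (SE 0.15, 95% interval -0.82 to -0.17, adjusted p = 0.0189). The call was lost without bear 1305 (adjusted p = 0.0593) or without bear 1317 (0.0852), and the adjusted p over all alternatives ran from 0.00842 to 0.0852.

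**Figure D2:**
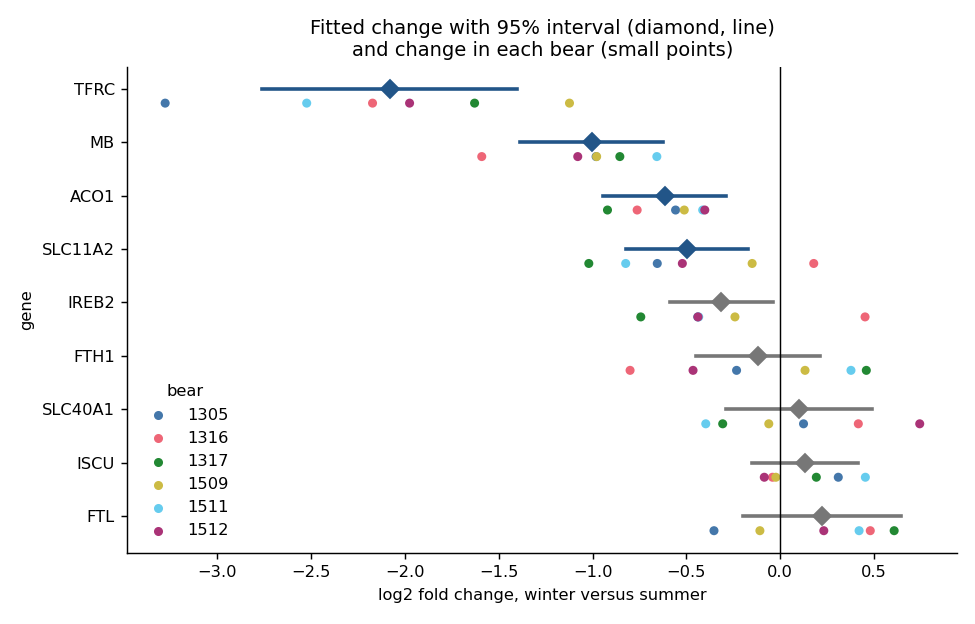
Winter minus summer on the log2 scale for each of the 9 genes: small coloured points are the 6 bears, and the diamond with its line is the edgeR log2 fold change with its 95% interval. The points are paired by bear, and the interval is from the fit without a bear term. The intervals of TFRC, MB, ACO1, SLC11A2 and IREB2 lie below 0, and those of FTH1, FTL, SLC40A1 and ISCU span 0.

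The storage and export genes of the set, FTH1, FTL and SLC40A1, did not pass the test, which called 19.9% of all genes lower and 19.6% higher. FTH1, the heavy ferritin chain that oxidises iron for storage, was 387, 491 and 717 CPM at the lowest, median and highest of the summer libraries and 411, 470 and 535 CPM in winter, all winter values falling inside the summer range. Its log2 fold change was -0.12 (SE 0.15, 95% interval -0.45 to 0.21, adjusted p = 0.565), 3 bears being higher and 3 lower, from -0.80 in bear 1316 to 0.46 in bear 1317. Without bear 1316 the fitted value became 0.04, and the adjusted p over all alternatives ran from 0.298 to 0.863.

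FTL, the light chain that helps nucleate the ferritin core, was 219, 314 and 401 CPM at the lowest, median and highest in summer and 273, 317 and 559 CPM in winter. Most libraries overlapped, and the winter library of bear 1316 stood above every other at 559 CPM. The log2 fold change was 0.22 (SE 0.20, 95% interval -0.20 to 0.64, adjusted p = 0.385), with 4 bears higher and 2 lower. Read against each other within a library, FTH1 reads per FTL read numbered 1.3003 to 2.53 in summer (median 1.63) and 0.736 to 1.63 in winter (median 1.55), with the bear 1316 change the largest at -1.28 on the log2 scale and 2 bears higher in winter. Mammalian genomes carry near-identical copies of the ferritin genes, and how reads matching several places were handled is not given in the sources used here, so the ferritin values are uncertain to that extent.

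The ratio of TFRC to FTH1 reads within a library was lower in winter in every bear. TFRC reads per FTH1 read numbered 0.411 to 1.73 in summer, with a median of 1.43, and 0.158 to 0.454 in winter, with a median of 0.318. The change by bear ran from -3.05 to -1.26 on the log2 scale, and 0 bears were higher in winter. With a fitted log2 fold change of -0.12 for FTH1 and -2.08 for TFRC, the ratio mainly restates the TFRC difference. The uncertainty of the ferritin reads applies to it too.

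SLC40A1, ferroportin, is the only known iron exporter of vertebrate cells and is rich in macrophages that recycle red cells. It was 46.0, 53.4 and 84.5 CPM at the lowest, median and highest of the summer libraries and 39.6, 60.4 and 89.5 CPM in winter, so the seasons overlapped over nearly their whole range. The log2 fold change was 0.10 (SE 0.18, 95% interval -0.29 to 0.49, adjusted p = 0.687), and bears split 3 against 3, from -0.40 in bear 1511 to 0.74 in bear 1512. The macrophage marker sum was lower in winter without overlap, whereas CD163, the hemoglobin scavenger receptor of iron-recycling macrophages, was 7.58, 15.9 and 25.0 CPM in summer and 5.86, 12.5 and 17.0 CPM in winter (log2 fold change -0.45, SE 0.27, adjusted p = 0.204). The part of macrophages in the SLC40A1 level was not tested.

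Of the iron sensors, ACO1 fell and IREB2 did not pass. ACO1 is an aconitase when it holds an iron-sulfur cluster and an RNA-binding iron regulatory protein when it has lost it. Its summer level was 34.0 CPM at the lowest, 43.1 at the median and 67.6 at the highest, and its winter level was 23.1, 31.0 and 35.7 CPM. The only overlap was between bear 1317, highest in both seasons, and bear 1305, lowest in both, since the winter library of the former lay above the summer library of the latter. The log2 fold change was -0.62 (SE 0.15, 95% interval -0.94 to -0.29, adjusted p = 0.00599), and each of the 6 bears was lower, from -0.40 in bear 1512 to -0.92 in bear 1317. The call held under every alternative run, with an adjusted p of 1.33e-05 to 0.0260.

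IREB2 lacks a cluster and is instead degraded when iron is plentiful. It was 38.5, 56.7 and 64.5 CPM at the lowest, median and highest of the summer libraries and 38.5, 41.8 and 52.7 CPM in winter, with 5 of 6 bears lower. Bear 1316 went the other way by 0.45 on the log2 scale, and its summer library was the lowest of that season. The log2 fold change of -0.31 (SE 0.13, 95% interval -0.59 to -0.04) had an adjusted p of 0.0638. Without bear 1316 the value was -0.45 and the gene was called lower (adjusted p = 0.00633), and over all alternatives the adjusted p ran from 0.00633 to 0.222. In bear 1316 SLC11A2 and IREB2 were both higher in winter, against the direction of the other 5 bears.

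ISCU is the scaffold on which new iron-sulfur clusters are assembled in mitochondria. It was 38.0, 46.2 and 61.6 CPM at the lowest, median and highest of the summer libraries and 43.5, 53.2 and 64.0 CPM in winter. The seasons overlapped almost fully, the log2 fold change was 0.13 (SE 0.13, 95% interval -0.15 to 0.41, adjusted p = 0.451), and 3 bears were higher and 3 lower. The lower bound of that interval is a smaller fall than the one fitted for ACO1, and a difference between the genes was not tested.

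Of 29 other tested genes of cluster assembly, 8 were called lower, 2 higher and 19 did not pass, where 19.9% of all genes were called lower and 19.6% higher, with a median log2 fold change of -0.20 and bear medians of -0.38 to 0.04. In the core machine that works on ISCU, the cysteine desulfurase NFS1, which supplies sulfur, was 60.6, 71.3 and 86.1 CPM at the lowest, median and highest of the summer libraries and 41.7, 45.8 and 52.4 CPM in winter, lower in 6 of 6 bears without overlap (log2 fold change -0.65, SE 0.10, adjusted p = 0.000231). The desulfurase partner LYRM4, low in the summer library of bear 1317 (0.09, SE 0.16, adjusted p = 0.669), and the ferredoxin FDX2 (-0.11, SE 0.19, adjusted p = 0.674) did not pass.

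The chaperone pair that moves a finished cluster off ISCU split in direction. HSPA9, the mitochondrial Hsp70, was 358, 381 and 448 CPM at the lowest, median and highest in summer and 237, 303 and 320 CPM in winter, again without overlap (-0.43, SE 0.11, adjusted p = 0.00562). Its co-chaperone HSCB rose from 9.73, 13.0 and 18.8 CPM to 15.7, 25.1 and 30.5 CPM (0.84, SE 0.17, adjusted p = 0.00195). GLRX5, which receives the cluster, did not pass (-0.10, SE 0.16, adjusted p = 0.639), whereas its cytosolic relative GLRX3 rose from 49.5, 60.1 and 72.5 CPM to 79.7, 89.6 and 105 CPM, every winter library being above every summer one (0.60, SE 0.10, adjusted p = 0.000579).

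The largest falls of the cluster assembly list were in NUBPL, ABCB8, NUBP1 and CIAPIN1. NUBPL, which delivers clusters to respiratory complex I, went from 6.67, 7.76 and 8.56 CPM in summer to 1.14, 2.14 and 3.70 CPM in winter (-1.79, SE 0.23, adjusted p = 8e-05). ABCB8, a mitochondrial transporter tied to iron export from the organelle (-1.43, SE 0.21, adjusted p = 0.000185), NUBP1 (-1.01, SE 0.14, adjusted p = 0.000134) and CIAPIN1 (-0.83, SE 0.13, adjusted p = 0.000234), both parts of the cytosolic assembly route, were lower too. CISD1, an outer-membrane protein that itself holds a cluster (-0.51, SE 0.13, adjusted p = 0.00613), and BOLA3 (-0.54, SE 0.17, adjusted p = 0.0249) completed the 8. BOLA3 was not called without bear 1305 (0.0528), 1316 (0.107) or 1509 (0.0584), with 0.00318 to 0.107 over all alternatives.

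Among 21 tested genes of iron transport, storage and control outside the set, 3 were called higher and 7 lower, beside 19.6% and 19.9% of all genes, with a median log2 fold change of -0.01 and bear medians of -0.22 to 0.09. FBXL5, the iron-sensing ubiquitin ligase subunit that marks IREB2 for degradation, rose from 45.8, 52.7 and 61.7 CPM at the lowest, median and highest in summer to 84.7, 93.8 and 103 CPM in winter. The seasons were far apart, and 6 of 6 bears were higher, as were 18.4% of all genes (log2 fold change 0.80, SE 0.10, adjusted p = 5.52e-05). The mitochondrial iron importers, paralogs of each other, moved apart: mitoferrin 2 (SLC25A28) rose from 8.82, 9.43 and 13.7 CPM to 14.3, 19.7 and 25.2 CPM (0.98, SE 0.16, adjusted p = 0.000289), and mitoferrin 1 (SLC25A37), the form of red-cell precursors, fell from 26.1, 30.5 and 34.5 CPM to 18.0, 21.5 and 29.8 CPM (-0.46, SE 0.12, adjusted p = 0.00932). The iron chaperones of the cytosol, which load ferritin, moved apart as well. PCBP2 rose (0.44, SE 0.10, adjusted p = 0.0034) with every winter library above every summer library, as for FBXL5 and SLC25A28 and for 9.12% of all genes. PCBP1 was called lower (-0.27, SE 0.10, adjusted p = 0.0421), but not with bear as a block (0.0598) nor without any single bear other than 1511 (0.0667 to 0.134), over 0.0125 to 0.134 across alternatives. Without bear 1317 the list held 4 genes called lower in place of 7.

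Of the 21 tested genes of that list, 3 were lower in winter without overlap, beside 8.21% of all genes. They were CP, described below, and 2 genes of the uptake side. SLC39A14, a carrier of iron that is not bound to transferrin, was 15.2, 18.9 and 29.9 CPM at the lowest, median and highest in summer and 9.63, 10.6 and 13.0 CPM in winter (-0.92, SE 0.17, adjusted p = 0.000845). STEAP3, the endosomal reductase that works between TFRC and SLC11A2, was 25.5, 29.5 and 41.2 CPM in summer and 15.2, 18.0 and 22.3 CPM in winter (-0.74, SE 0.14, adjusted p = 0.00121). TFR2, the second transferrin receptor, had at most 7 reads in a library and did not pass (0.23, SE 0.70, adjusted p = 0.817). HFE, which binds the receptor, was also called lower (-0.49, SE 0.15, adjusted p = 0.0161), though not without bear 1317 (0.0545, with 0.006 to 0.0545 over all alternatives).

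Genes better known from the liver stood low. Ceruloplasmin (CP), a copper ferroxidase that works with ferroportin, was counted at 4 to 182 reads per library and fell from 1.58, 3.20 and 6.63 CPM to 0.168, 0.637 and 0.788 CPM (-2.83, SE 0.46, adjusted p = 0.000342). TMPRSS6, with 0 to 18 reads, was called lower (-1.95, SE 0.67, adjusted p = 0.0324), but not without bear 1317 (0.0570), 1509 (0.0832) or 1511 (0.0796), over 0.0301 to 0.0832 across alternatives. Hepatocyte markers, of which ALB and APOA1 were tested and called lower, beside 19.9% of all genes, summed to 51.3 to 85.3 CPM in summer and 12.5 to 30.2 CPM in winter. The part of such RNA in the CP level was not tested. HAMP, the iron hormone hepcidin, had at most 1 read in any library and was not tested. NCOA4, the receptor that sends ferritin to lysosomes to free its iron, was 892, 1146 and 1445 CPM in summer and 1216, 1386 and 1434 CPM in winter and did not pass (0.22, SE 0.13, 95% interval -0.06 to 0.49, adjusted p = 0.194), with 5 of 6 bears higher. LCN2, a siderophore-binding protein, was called higher with bear as a block (adjusted p = 0.0133) but not in the fit without it (0.81, adjusted p = 0.115), over 0.000245 to 0.279 across alternatives.

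**Figure D3:**
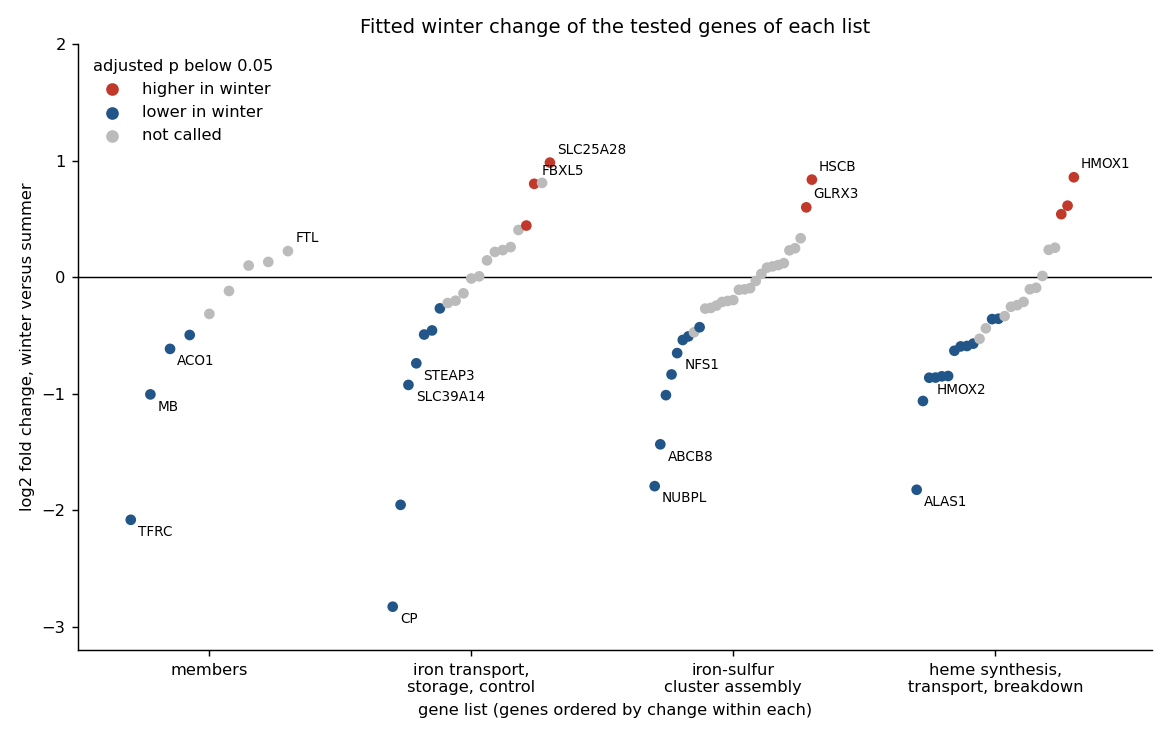
Log2 fold change, winter against summer, of every tested gene in the 9-gene set (members) and in the lists of iron transport, iron-sulfur cluster assembly and heme, ordered by size within each list, with genes called higher in red, lower in blue and the rest in grey. CP at -2.83, TFRC at -2.08, ALAS1 at -1.82 and NUBPL at -1.79 are the lowest labelled points, and SLC25A28 at 0.98 is the highest.

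Myoglobin needs heme, which muscle makes for itself. Of 26 tested genes of heme synthesis, transport and breakdown, 12 were called lower, 3 higher and 11 did not pass, beside 19.9% lower and 19.6% higher over all genes, with a median log2 fold change of -0.36 and bear medians of -0.60 to -0.18, and without bear 1305 the count of higher genes was 1. ALAS1, the rate-limiting first enzyme outside red-cell precursors, was 128, 180 and 242 CPM at the lowest, median and highest of the summer libraries and 42.4, 47.0 and 74.3 CPM in winter. No winter library reached the lowest summer library, and the winter level was 28.3% of the summer one (-1.82, SE 0.17, adjusted p = 7.52e-06), with bears from -2.51 in 1317 to -1.14 in 1511. ALAS2, its red-cell counterpart, had 1 to 38 reads and did not pass (0.25, SE 0.68, adjusted p = 0.792).

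Of 7 enzymes of heme synthesis analysed here, ALAS1 included, 5 were called lower, with a median of -0.59, beside 19.9% of all genes, and 4 with bear as a block, beside 21.2%. Those after ALAS1 included UROS (-0.86, SE 0.26, adjusted p = 0.016), UROD (-0.59, SE 0.10, adjusted p = 0.000634) and PPOX (-0.85, SE 0.18, adjusted p = 0.00214), of which UROD and PPOX did not overlap between seasons and UROS had a summer library, from bear 1305, far above the others. CPOX was called lower (-0.36, SE 0.13, adjusted p = 0.0356), but not with the block (0.0520) nor without any single bear other than 1316 (0.0710 to 0.126), over 0.0106 to 0.126 across alternatives. ALAD, the second enzyme, did not pass (-0.53, SE 0.26, adjusted p = 0.124), with 4 of 6 bears lower.

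Ferrochelatase (FECH), the last enzyme, which inserts iron into the ring and itself carries an iron-sulfur cluster, pointed the other way. It was 52.3, 68.6 and 71.6 CPM at the lowest, median and highest in summer and 67.4, 79.5 and 84.2 CPM in winter, and its log2 fold change of 0.23 (SE 0.10) did not pass (adjusted p = 0.0670). It was called higher by DESeq2 (0.0401) and without bear 1317 (0.0457), with 0.0401 to 0.282 over all alternatives. A test of FECH against the other enzymes was not run.

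**Figure D4:**
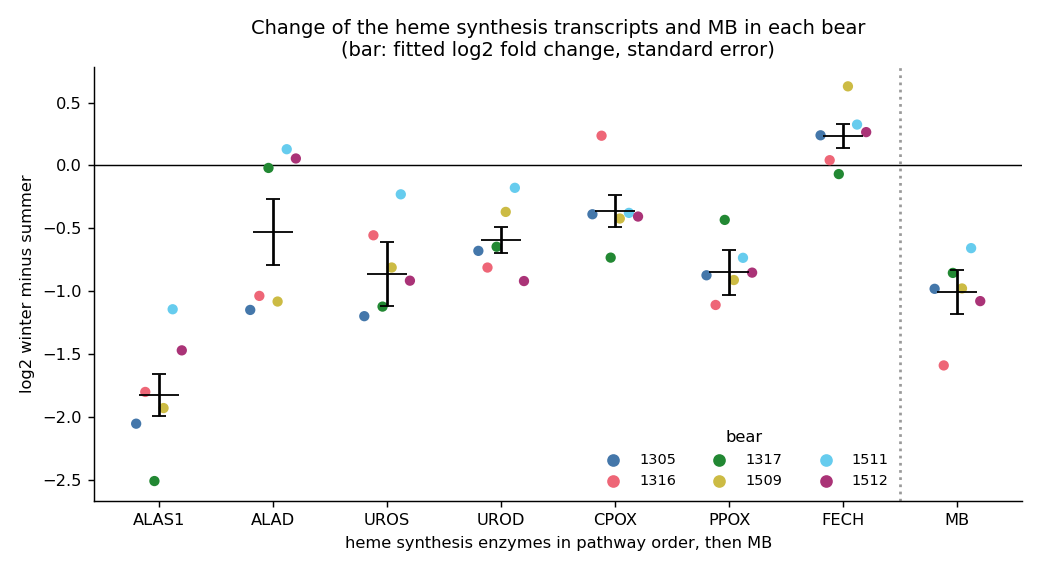
Winter minus summer on the log2 scale in each of the 6 bears (coloured points) for 7 enzymes of heme synthesis in pathway order and, right of the dotted line, for MB, with a black bar for the edgeR log2 fold change and its standard error. The bar is from the fit without a bear term. ALAS1 is lowest at -1.82, MB lies at -1.01, 5 of the 7 enzymes are called lower, and FECH at 0.23 is the only one of them with a fitted value above 0.

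Heme breakdown divided by isoform. HMOX2, the constitutive heme oxygenase, fell from 40.4, 46.0 and 49.3 CPM to 22.6, 23.2 and 34.4 CPM without overlap, bear 1511 being well above the other winter libraries (-0.86, SE 0.11, adjusted p = 8.33e-05). The inducible HMOX1 was 4.03, 7.42 and 10.3 CPM in summer and 9.05, 12.4 and 19.5 CPM in winter and was called higher (0.86, SE 0.25, adjusted p = 0.0154) with 5 of 6 bears higher, but not without bear 1305 (0.0609) or 1316 (0.0585), over 0.000857 to 0.0609 across alternatives. Of the 2 biliverdin reductase genes, BLVRB fell (-1.06, SE 0.27, adjusted p = 0.00673) and BLVRA did not pass (-0.24, SE 0.23, adjusted p = 0.424). The heme chaperone PGRMC2 rose with all winter libraries above all summer ones (0.54, SE 0.12, adjusted p = 0.00272), and HEBP2 was called higher (0.61, SE 0.20, adjusted p = 0.0263), though not without bear 1305 (0.0607), 1317 (0.107) or 1512 (0.0778), with 0.011 to 0.107 over all alternatives. HMOX1 is also a macrophage gene, the macrophage marker sum was 110 to 164 CPM in summer and 46.6 to 88.1 CPM in winter, and the part of macrophages in the HMOX1 level was not tested.

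Of 8 other globins with a row 3 had enough reads to be tested, CYGB, NGB and HBA1, and none was called in either direction by edgeR, DESeq2 or limma voom or at an unadjusted p below 0.05. HBA1 was called higher without bear 1509, and ADGB, which had too few reads to be tested, was called higher when no filter on reads was applied. Cytoglobin (CYGB), a relative of myoglobin found in fibroblast-type cells, was 3.42, 4.70 and 6.62 CPM at the lowest, median and highest in summer and 3.06, 3.99 and 5.78 CPM in winter (-0.21, SE 0.21, adjusted p = 0.458).

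The genes whose profile over the 12 libraries lay closest to each of 3 members were found by the root mean square difference in log2 CPM, after centring, among 10345 genes that carry a name and reach a mean log2 CPM of 1. They are a description, with no test of likeness. Nearest to MB were TIMM44, part of the mitochondrial import motor and low in bear 1317 in summer (0.163, log2 fold change -1.06), TCF15 (0.184, -0.90) and SEMA7A (0.186, -0.84). Nearest to TFRC were ANGPTL1 (0.379, -2.11), COLGALT2 (0.448, -1.93) and CCND2 (0.456, -2.04), each farther from it than the 3 genes above were from MB. For FTH1 they were ITPA, MAF and ANKRD35, all at 0.159.

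**Figure D5:**
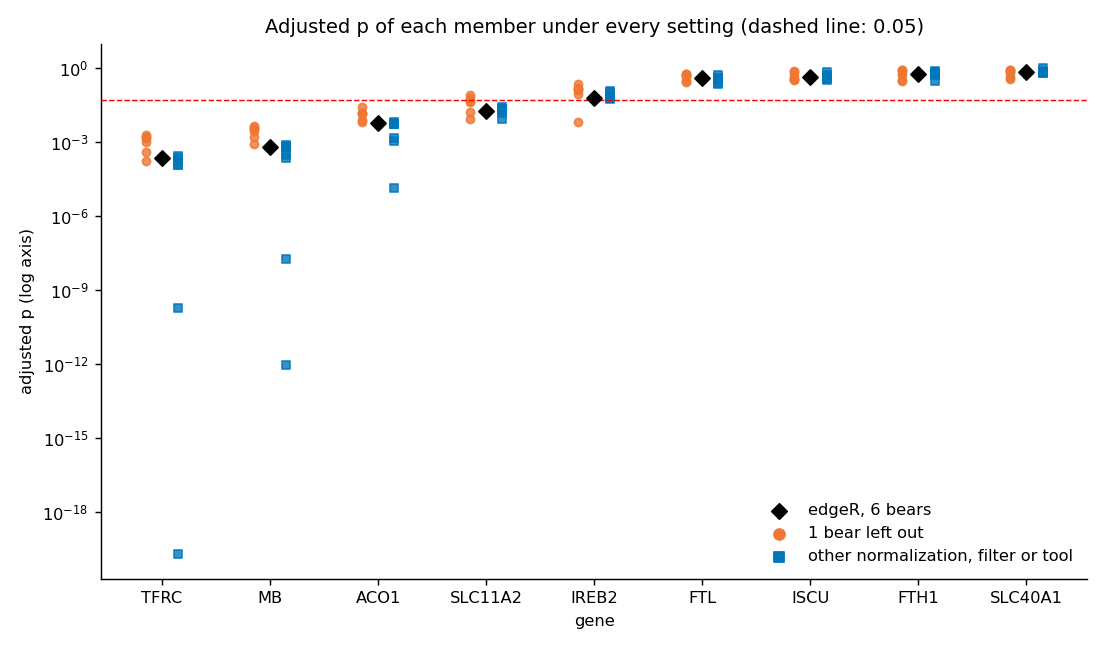
Adjusted p on a log axis for each of the 9 genes in the reported test (diamonds), with 1 bear left out (circles) and under the other normalizations, filters and tools (squares), with a dashed line at 0.05. MB, TFRC and ACO1 stay below the line throughout, SLC11A2 crosses it without bear 1305 or 1317, IREB2 crosses it without bear 1316, and the other 4 genes stay above it.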

How the data were processed

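The deposited file holds read counts per gene, whole numbers that the authors neither normalised nor filtered. Per the submitters' processing notes and the study's methods, stranded mRNA libraries were read as single ends of 50 bases, demultiplexed with bcl2fastq 2.20, examined with FastQC 0.11.5, aligned to assembly ASM358476v1 with TopHat2 2.1.1 and Bowtie2 (the sources name different versions of the latter), freed of alignments with more than 3 mismatches, handled with SAMtools 1.9 and counted on the proper strand with featureCounts 1.6.2. Sequencing lanes are not assigned in the labels, so a lane effect was not tested. The file had 0 reads without a gene name and 0 unused columns of per-sample values.

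Each library was placed by its title, which names the bear and the season. Genes needed at least 30 reads in total over the 12 libraries. Season was tested on all 12 with edgeR 4.0.16 (quasi-likelihood, TMM, R 4.3.3), without a bear term, and p-values were Benjamini-Hochberg adjusted over all 17290 genes. This test reports no standard error. Each SE given is the absolute log2 fold change divided by the square root of the test's F statistic. The 95% intervals were built from that SE with a t quantile. Unless the block is named, SEs and intervals thus leave the pairing by bear out of account. CPM per library used the TMM-scaled totals, and log2 CPM a prior count of 2. Alternatives were a bear block, DESeq2 1.42.0 with and without the block, RLE scaling, library totals, no filter, filterByExpr, limma 3.58.1 voom, a stricter threshold and leaving out each bear. Same-numbered libraries come from the same animal. After subtracting season means, the 2 libraries of a bear correlated at 0.0902 to 0.344, against a median of -0.0634 and a highest value of 0.142 for different bears, so the ranges overlapped. No library was a copy of another of its season (lowest chi-square per gene 30.2).

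On simulated counts with the depths of these libraries (17053 genes, 200 changed, no bear effect) the edgeR test recovered 59% of the 2-fold and 94% of the 4-fold changes and called 7 others. The real fit called 6831 of 17290 genes, a far larger share, so these rates need not hold for it. Depth of 16742406 to 32140160 reads makes counting error small except for genes of a few reads.

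The members and lists were chosen with earlier results of these data known. Named were all members, the up to 4 largest changes per list and direction with a mean log2 CPM of at least 1, some fixed genes (HMOX1, HAMP, NCOA4, FBXL5, ALAS1, ALAS2, FECH, CYGB) and the 3 nearest profiles of MB, TFRC and FTH1. CP, PCBP1, TMPRSS6, LCN2, NFS1, LYRM4, FDX2, HSPA9, GLRX5, BOLA3, CISD1, ALAD, UROD, CPOX, PPOX, EPB42, HBA1, MYOZ2, LEP, LPL, FABP4, TFR2, BLVRA and ADGB were named after their values were seen. All 9 symbols are in a RefSeq table of another assembly, from which no coordinate was used. Some genes are not reported here and were left out of the list counts.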

Additional observations from a re-analysis of the deposited data

Results flagged for a closer look

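In 5 of 120 groups of 6 libraries, each group being 1 gene in 1 season, the highest or lowest library lay far from the rest: its gap to the nearest library, divided by the range of the group, exceeded the 95% critical value of Dixon's test. Chance does so in about 1 group in 20, so 5 groups are no more than that. None of the 9 genes of the set was among them. Values are log2 CPM. Bear 1511 supplied 1 of them in winter, with HMOX2 at 5.11 where the other bears were at 4.50 to 4.60. Bear 1317 supplied 2 in summer, with TIMM44 at 5.09 (others 5.48 to 5.60) and LYRM4 at 1.95 (others 2.66 to 2.81). UROS was at 4.998 in summer in bear 1305 (others 3.57 to 3.95). EPB42, a gene of few reads, was at -0.92 in winter in bear 1509 (others -3.53 to -2.72).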

How the results depend on the processing

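The bear block changed no call among the 9 genes of the set. Their count lower was 3 to 5 and their count higher 0 under the alternatives run. Over the alternatives, 120 of 126 values for the set kept direction and side of the threshold, 2 fell short of it, 1 passed it and 3 changed sign, and for the other named genes these counts were 671 of 713, 29, 4 and 9. At the stricter threshold the iron transport list held 4 lower, and the heme list 1 higher and 5 lower. Leaving out each bear gave 4 to 6 lower in the iron list, 1 to 3 higher in the heme list and 0 to 1 higher among other globins, where dropping the filter gave 1. Signs changed for genes near 0. On leaving out bears, log2 fold changes spanned -0.22 to 0.041 for FTH1, -0.052 to 0.21 for SLC40A1, -0.042 to 0.80 for ALAS2 and -0.073 to 0.060 for MAF. SLC40A1 was at -0.000814 with library totals. MAF was at 0.0064 with the bear block, 0.013 with DESeq2 and the block, 0.00083 with RLE scaling, 0.0050 with filterByExpr and 0.0032 with limma voom. The cause was not tested, but library totals lowered the median of all genes to -0.08 and called 2706 higher and 3789 lower, against 3386 and 3445. Calls over all genes numbered 7055 with the block and 5256 without bear 1305. Transcripts of a few reads, such as ALAS2, EPB42 and TMPRSS6, are limited by depth. Single biopsies per bear and season leave the spread within a muscle unmeasured.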
